A study of Mus musculus with 6 samples.

Results

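The microRNA (miRNA) genes Mir290a, Mir295 and Mir302a and the RNA-binding protein genes Lin28a and Lin28b were described by the ATAC-seq peaks at and around them in mouse embryonic stem cells (mESCs). These 5 genes, of 26180 curated RefSeq genes on placed chromosomes, were chosen by name and make up 4 loci, since Mir290a and Mir295 are the first and the last precursor of 1 cluster on chromosome 7. For each locus the peaks within 1 kb of a transcription start site (TSS), and those in the gene span plus 30 kb on each side, were listed. The windows held 17 of the 41014 peaks of the list, and the peaks of the chromosome 7 cluster were counted once.

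ATAC-seq marks accessible DNA by letting the transposase Tn5 insert sequencing adapters into it. It was part of a study of ZBTB21, a zinc finger transcription factor that the study examined together with cohesin. The 6 samples fall into 3 groups of 2: untreated V6.5 mESCs, and mESCs carrying a degron tag on ZBTB21 after 0 h or 6 h of IAA, the auxin that triggers loss of the tagged protein. Only the untreated list was used, and the degron cells were not analysed here. V6.5 is a mouse embryonic stem cell line, and according to the labels it was grown with LIF and serum on irradiated mouse embryonic fibroblasts. The methods of the study also name inhibitors of GSK3 and MEK for the culture of its mESCs. The labels call these libraries untreated, while the treatment text that all labels share describes doxycycline given to degron cells. The list holds a position, a width and a score for each peak and pools both replicates, so neither the spread between replicates nor the depth of each library was known, and no test was made. Scores ran from 540 to 953 with a median of 696, and the median width was 547 bp. From its values only, the score was read as a scaled IDR score. Such a score ranks how well replicates agree on a peak and does not measure how open the site is.

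The miR-290 to miR-295 cluster and the miR-302 cluster produce miRNAs that are abundant in pluripotent cells and absent from most adult tissues. A miRNA pairs with its targets mainly through its seed, the bases 2 to 8 from its 5′ end, and the seed shared by many miRNAs of these clusters lowers inhibitors of the cell cycle such as Cdkn1a. LIN28A and LIN28B bind the precursors of let-7, a miRNA family of differentiated cells, and keep them from maturing. A miRNA is cut from a longer primary transcript that often starts kilobases upstream, so the RefSeq start of a miRNA gene is the first base of its hairpin and not the start of transcription.

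The mature 3p arms are shown because their seeds join the 2 clusters. RefSeq (GRCm38.p6) gave 26 mature sequences for the 14 genes of both clusters, of which 12 were 3p arms, and 7 of these 12 carried AAGUGC at bases 2 to 7. The 3p arms of miR-302a and miR-292a were not among the 12 and were not analysed here, so the count does not cover every 3p arm of the clusters. Capitals mark the seed.
mmu-miR-290a-3p: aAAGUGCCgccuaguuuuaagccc
mmu-miR-291a-3p: aAAGUGCUuccacuuugugugc
mmu-miR-291b-3p: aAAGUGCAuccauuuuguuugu
mmu-miR-294-3p: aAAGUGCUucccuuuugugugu
mmu-miR-295-3p: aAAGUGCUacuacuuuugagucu
mmu-miR-302b-3p: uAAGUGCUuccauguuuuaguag
mmu-miR-302d-3p: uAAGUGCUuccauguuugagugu
Of the other 3p arms, 3 are shown for contrast, together with 2 of the 5p arms. The seed letters are shifted in miR-302c-3p and, against miR-290a-3p, in miR-293-3p, and different in miR-367-3p. Of the 5p arms, 6 shared CUCAAA at bases 2 to 7.
mmu-miR-302c-3p: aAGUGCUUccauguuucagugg
mmu-miR-293-3p: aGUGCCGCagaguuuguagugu
mmu-miR-367-3p: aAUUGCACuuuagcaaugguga
mmu-miR-295-5p: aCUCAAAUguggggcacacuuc
mmu-miR-302a-5p: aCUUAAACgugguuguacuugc
The seeds of miR-291a-3p, miR-294-3p, miR-295-3p, miR-302b-3p and miR-302d-3p were the same at all bases from 2 to 8, although the genes lie on chromosomes 7 and 3. The peaks listed around the 2 clusters differed in number, with 9 at the first and 1 at the second.

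The peak with the highest score at each locus, the peak nearest to the Mir290a start and the peaks that hold a STAT match are shown by the 300 bases around their midpoint on the plus strand of GRCm38. Capitals mark matches to the short motifs searched, which were ACAATG for SOX factors, GGGNGTGG for KLF factors, TTCCNGGAA for STAT factors and AGNNGGCNC for the core of the CTCF motif, each on both strands. The first 3 come from the far upstream side of the miR-290 cluster and hold the STAT letters.
miR-290 cluster peak 2, chr7:3194097-3194396: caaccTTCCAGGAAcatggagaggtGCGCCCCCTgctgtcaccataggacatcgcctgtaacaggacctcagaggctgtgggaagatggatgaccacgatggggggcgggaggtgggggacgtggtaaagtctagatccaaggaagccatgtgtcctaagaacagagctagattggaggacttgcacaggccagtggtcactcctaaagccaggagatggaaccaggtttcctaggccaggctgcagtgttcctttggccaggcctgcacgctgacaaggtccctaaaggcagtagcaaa
miR-290 cluster peak 3, chr7:3198825-3199124: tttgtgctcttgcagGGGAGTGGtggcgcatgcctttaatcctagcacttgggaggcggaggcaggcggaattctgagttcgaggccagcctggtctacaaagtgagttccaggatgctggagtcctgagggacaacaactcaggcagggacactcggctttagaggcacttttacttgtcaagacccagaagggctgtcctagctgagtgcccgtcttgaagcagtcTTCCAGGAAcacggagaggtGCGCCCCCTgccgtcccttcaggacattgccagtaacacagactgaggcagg
miR-290 cluster peak 4, chr7:3201320-3201619: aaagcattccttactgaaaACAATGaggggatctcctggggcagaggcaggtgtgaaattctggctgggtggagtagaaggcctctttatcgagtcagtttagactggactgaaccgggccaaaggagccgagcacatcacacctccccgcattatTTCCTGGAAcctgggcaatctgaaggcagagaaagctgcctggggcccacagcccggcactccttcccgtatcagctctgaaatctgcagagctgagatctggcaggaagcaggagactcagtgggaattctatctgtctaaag
The next is the peak with the highest score at the cluster (SOX matches), followed by the only peak within 1 kb of a member start site (KLF match).
miR-290 cluster peak 5, chr7:3206593-3206892: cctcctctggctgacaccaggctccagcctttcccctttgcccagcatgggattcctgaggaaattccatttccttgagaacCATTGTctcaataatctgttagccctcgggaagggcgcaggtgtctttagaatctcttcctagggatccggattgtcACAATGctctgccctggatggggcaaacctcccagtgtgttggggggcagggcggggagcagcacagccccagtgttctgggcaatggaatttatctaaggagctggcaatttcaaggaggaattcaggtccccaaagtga
miR-290 cluster peak 8, chr7:3217564-3217863: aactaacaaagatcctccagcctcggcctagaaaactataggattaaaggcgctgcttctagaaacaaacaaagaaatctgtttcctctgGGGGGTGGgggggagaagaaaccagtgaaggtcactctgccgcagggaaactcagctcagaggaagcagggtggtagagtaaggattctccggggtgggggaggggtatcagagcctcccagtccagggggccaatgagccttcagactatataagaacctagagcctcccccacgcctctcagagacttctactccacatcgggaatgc
The last 3 are the only peak around Mir302a and the peaks with the highest score at Lin28a and Lin28b.
Mir302a peak 1, chr3:127530382-127530681: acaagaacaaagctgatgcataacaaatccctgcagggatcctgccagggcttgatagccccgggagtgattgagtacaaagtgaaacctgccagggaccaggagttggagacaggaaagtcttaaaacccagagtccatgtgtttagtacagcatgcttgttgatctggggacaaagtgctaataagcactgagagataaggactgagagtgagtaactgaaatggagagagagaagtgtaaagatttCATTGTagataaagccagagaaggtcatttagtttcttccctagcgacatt
Lin28a peak 3, chr4:134011800-134012099: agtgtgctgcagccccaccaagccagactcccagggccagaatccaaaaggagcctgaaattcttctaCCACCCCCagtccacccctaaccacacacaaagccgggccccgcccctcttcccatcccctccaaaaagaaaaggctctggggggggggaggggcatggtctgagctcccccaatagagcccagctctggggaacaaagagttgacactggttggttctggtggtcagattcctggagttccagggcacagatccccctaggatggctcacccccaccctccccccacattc
Lin28b peak 1, chr10:45446216-45446515: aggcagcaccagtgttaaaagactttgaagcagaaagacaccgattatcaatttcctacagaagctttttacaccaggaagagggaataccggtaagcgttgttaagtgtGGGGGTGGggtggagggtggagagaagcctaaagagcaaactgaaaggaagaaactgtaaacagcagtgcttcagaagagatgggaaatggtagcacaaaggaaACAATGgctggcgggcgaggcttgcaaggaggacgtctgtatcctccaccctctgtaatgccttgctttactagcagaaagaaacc

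For miRNA genes a promoter peak here means a peak within 1 kb of the hairpin start, not of the start of transcription. At promoters so defined, 1 of the 5 genes had a peak. It was Mir290a, while Mir295, Mir302a, Lin28a and Lin28b had none within 1 kb. Of all miRNA genes, 11.2% had such a peak (137 of 1228, Wilson 95% interval 9.52% to 13.0%), and of all protein-coding genes 28.5% did (5991 of 21000, interval 27.9% to 29.1%). These intervals cover counting error only and treat genes as independent, although miRNA precursors of 1 cluster can share a peak. The list lacks a peak at most promoters, including those of the mESC factors Sox2, Klf4 and Esrrb, so a start site without a listed peak cannot be read as closed chromatin. With at least 1 peak in each window, all 4 loci were like the majority of the genome, since 76.7% of the 943 miRNA loci (precursors joined within 10 kb) and 78.8% of protein-coding genes had one in their span plus 30 kb.

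The miR-290 cluster (chr7:3218626-3220841, plus strand, GRCm38) had the most peaks of the 4 loci. Its window of 62.22 kb held 9 peaks, or 14.5 per 100 kb, and peaks covered 8.75% of it. Of these, 8 lay upstream of the Mir290a start and 1 downstream of the cluster, and none overlapped a precursor. The scores ran from 569 to 845 with a median of 764, and 7 of the 9 were above the median of the list. Thus the peaks of this locus were numerous, mostly above the list median in score and mostly on 1 side. Peaks 1 (706) and 7 (699) stood only just above that median of 696.

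The most distant pair lay about 25 kb upstream. The curated start nearest to peak 1 was that of AU018091, at 23706 bp, against 24993 bp to Mir290a. Peak 1 (chr7:3192909-3193633) was 725 bp wide with a score of 706, and peak 2 (chr7:3193883-3194610) was 728 bp wide with a score of 775. Only 249 bp separated them, so they could be counted as 1 region. Peak 3 (chr7:3198791-3199158) was narrower, at 368 bp, with a score of 796. Peak 4 (chr7:3201088-3201852) was 765 bp wide with a score of 840. Peak 5 (chr7:3206342-3207143), 11.88 kb upstream of the start by its midpoint, was 802 bp wide and had the highest score of the locus, 845, and 94.3% of the list scored lower. The scores thus rose from peak 1 to peak 5 along the chromosome. Peak 6 (chr7:3211555-3212627) was the widest of all 17 at 1073 bp, wider than 95.4% of the list, but its score was only 619.

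Close to the hairpins the peaks were narrow. Peak 7 (chr7:3216470-3216701), 2.04 kb upstream, was the narrowest of the 17 at 232 bp, and 1.82% of the list was narrower, with a score of 699. Peak 8 (chr7:3217546-3217881) was 336 bp wide with a score of 764, and its edge lay 745 bp from the first base of Mir290a. It counted for Mir290a, for the opposite-strand precursor Mir290b (814 bp) and for D7Ertd143e, a long noncoding RNA annotated over the cluster, whereas Mir291a, at 1038 bp, fell just outside the 1 kb limit. Mir295, the last precursor, started 2892 bp from this peak, which was the nearest one to it. Peak 9 (chr7:3228120-3228537), in an intron of Nlrp12, which encodes a NOD-like receptor, had the lowest score of the locus at 569 and was 418 bp wide. No peak lay at the Nlrp12 promoter, and 10238 bp without a peak separated peaks 8 and 9.

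**Figure D1:**
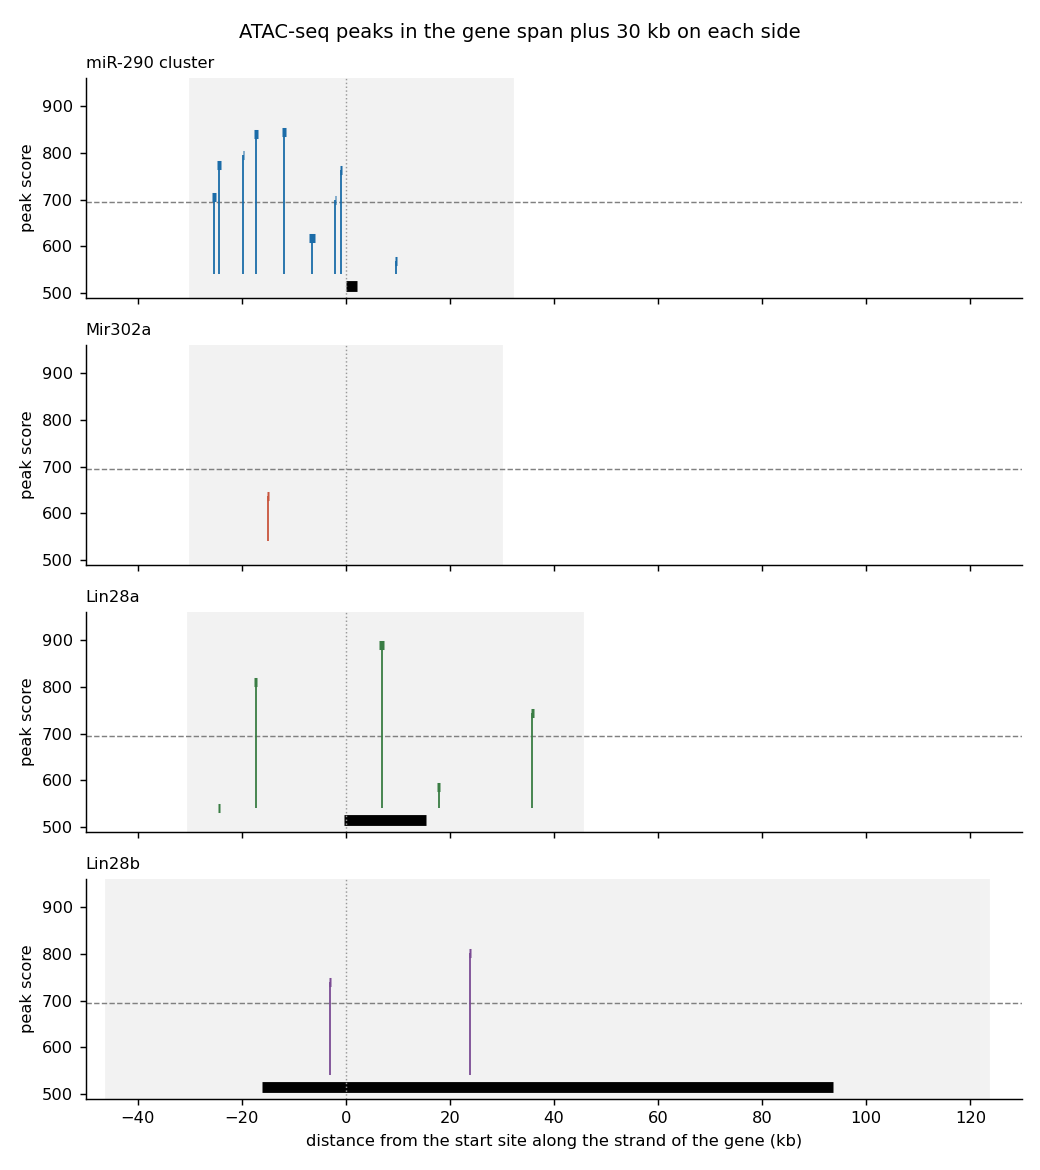
Peaks in the 4 windows (grey), drawn at their midpoint (x axis: kb from the start site along the strand of the gene; y axis: peak score), with the bar on top as wide as the peak, the black bar as the gene or cluster span and the dashed line at the list median score of 696. The miR-290 cluster has 8 peaks on its upstream side and Mir302a 1 peak at a score of 637. Lin28a has its peak with the highest score (891) inside the gene, and Lin28b has 2 peaks in 169.7 kb.

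The 8 upstream peaks lay within 24973 bp, of which they covered 20.1%. Among the 40853 runs of 8 consecutive peaks of the list, 7 (0.0171%) were as short or shorter, and they fell into 5 separate regions. The run size and the limit were taken from this locus, whose own run is among the 7. The runs also overlap each other, so this share is a description and not a probability. The other 4 regions lay at Zfp184, Ncoa3, Ier2 and Tmem231, named after the ranking was seen. Those at Ncoa3, Ier2 and Tmem231 contained a curated start site, whereas the miR-290 region and the one near Zfp184, 4509 bp from its start, contained none.

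Peaks 2, 3 and 4 each held 1 TTCCNGGAA site, the letters bound by STAT3, which acts downstream of LIF. These letters read the same on both strands, so each site was counted once. They occurred in 1.47% of the 41000 peaks on placed chromosomes, and in 3 of the 17 peaks here, all of them neighbours at this cluster. SOX letters occurred in peaks 1, 4 and 5 of the cluster, in the Mir302a peak and in Lin28b peak 1 (5 of 17, against 15.1% of all peaks). KLF letters occurred in 6 of 17 (23.3% of all peaks) and the CTCF core in 5 of 17 (24.4%). The octamer ATGCAAAT of POU factors (2.85% of all peaks), TCAAGGTCA of ESRRB (1.27%) and TATAAA (8.52%) had no match in the 17 windows. A match is a description of letters and not a bound site.

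Peaks 2 and 3 shared more than the motif. A stretch of 59 bases, which begins 1 base before the STAT site and runs on through the CTCF core, was identical at 51 positions (86.4%) without gaps. It lies at chr7:3194101-3194159 in peak 2 and at chr7:3199052-3199110 in peak 3, so about 5 kb apart in the same orientation. The STAT and CTCF core matches of peaks 2 and 3 lie in this stretch, so they cannot be taken as independent occurrences in the motif counts. Among the 136 pairs of the 17 windows, the run with the next highest match score was 20 bases long, between peaks 6 and 9. The comparison was made after the sequences were seen. In peak 8 the letters TATATAA, also looked for after the sequence was seen, stood 818 bp before the first base of Mir290a on the strand of the cluster, and 1.52% of all peaks hold them on either strand.

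Mir302a (chr3:127545496-127545564, plus strand), the precursor of miR-302a in a cluster with miR-367, stood at the other end by number of peaks, though not by peaks per 100 kb. Its window of 60.07 kb held 1 peak, or 1.66 per 100 kb, covering 0.658% of it. The peak (chr3:127530335-127530729) was 395 bp wide with a score of 637, which is below the median of the list, and 29.5% of all peaks scored lower. It was intergenic, and its edge was 14767 bp upstream of Mir302a. None of the 5 precursors of the cluster had a promoter peak, and neither did the neighbours Larp7, which encodes a protein of the 7SK complex and within whose span the cluster lies on the opposite strand, Zgrf1 or the noncoding Gm51018. A single peak with a score below the list median was therefore all the list gave in this window, with its flanks of 30 kb.

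Lin28a (chr4:134003330-134019196, minus strand) was between these. Its window of 75.87 kb held 5 peaks, 6.59 per 100 kb, 2 upstream and 3 downstream of the curated start. The nearest one, peak 3 (chr4:134011475-134012424), lay in an intron of Lin28a 6392 bp into the gene. It had the highest score of all 17 peaks, 891, with 98.1% of the list below it, and at 950 bp it was wider than 92.2% of the list. A predicted RefSeq transcript of Lin28a starts 1315 bp from this peak, so the gene had no peak within 1 kb of a predicted start either.

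The other Lin28a peaks lay outside the gene. Peak 2 (chr4:134000619-134001321, 703 bp, score 586) overlapped the start of Dhdds, which encodes a subunit of the enzyme that makes dolichol. With 64.0% GC and 30 CpGs in its 300 bases it was the only one of the 17 with a CpG observed to expected ratio near 1 (0.98). In an intron of Dhdds, peak 1 (chr4:133982714-133983287) was 574 bp wide with a score of 745. On the upstream side, peak 4 (chr4:134035830-134036396) was 567 bp wide with a score of 810, and peak 5 (chr4:134043003-134043451) was 449 bp wide with a score of 542, close to the lowest score of the list. Peaks 1, 3 and 4 of Lin28a were thus above the median score of the list, and peaks 2 and 5 below it.

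Lin28b (chr10:45376617-45486314, minus strand), the paralog that also blocks let-7, spans 109.7 kb and had the largest window, 169.7 kb, with 2 peaks or 1.18 per 100 kb. Both scored above the median of the list. Peak 1 (chr10:45446176-45446556), in an intron 23.84 kb downstream of the curated start, was 381 bp wide with a score of 803. Peak 2 (chr10:45473054-45473499) lay 2853 bp upstream of that start, inside an intron of predicted longer transcripts, and was 446 bp wide with a score of 741. The nearest start of a predicted transcript was 2897 bp from peak 2, so no start of Lin28b, curated or predicted, had a peak within 1 kb.

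**Figure D2:**
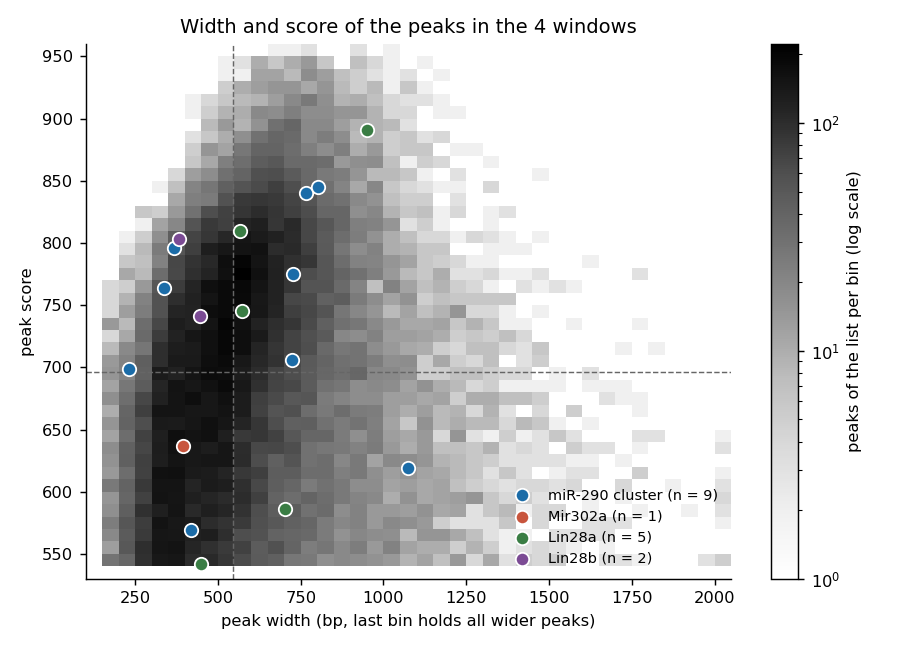
Peak width (x axis, bp) against score (y axis) for the whole list in grey bins on a log colour scale, with the 17 peaks of the 4 loci as coloured points and dashed lines at the list medians (547 bp and 696). Lin28a holds the highest point (891) and the lowest (542), and 12 of the 17 points lie above the median score.

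Over all windows, the 17 peaks had a median score of 745, and 12 (70.6%) were above the list median of 696. The median width was 567 bp, and 7 were wider than 700 bp. By their midpoints 12 were intergenic, 4 lay in introns of curated transcripts and 1 in an intron of predicted transcripts only, while 0 lay in exons. Base composition was like that of the list, with a median GC content of 54.3% against 52.7% and a median CpG ratio of 0.25 in both. The share of repeat-masked bases in the 300 bases was 15.7% at the median against 8.33%, and was highest in miR-290 peaks 6 and 7 (58.7% and 70.0%).

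Since the windows differ in length, peaks were also counted in the same 60 kb about each start site, which was decided after the counts were seen. The miR-290 cluster had 9, Lin28a 4, Lin28b 2 and Mir302a 1, where the median was 2 for both miRNA loci and protein-coding genes. Of the 943 miRNA loci, 2 had more than the miR-290 cluster, Mir152 and Mir330, and it shared its count with 7 others. Of the 21000 protein-coding genes 27 had more (0.129%). Mir302a was exceeded by 544 of the 943 miRNA loci, and 23.3% of them had fewer. For Lin28a 79.5% of protein-coding genes had fewer, and for Lin28b 48.6%. The order of the loci was the same as by the window counts, but Mir302a and Lin28b changed places when peaks were given per 100 kb of window.

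**Figure D3:**
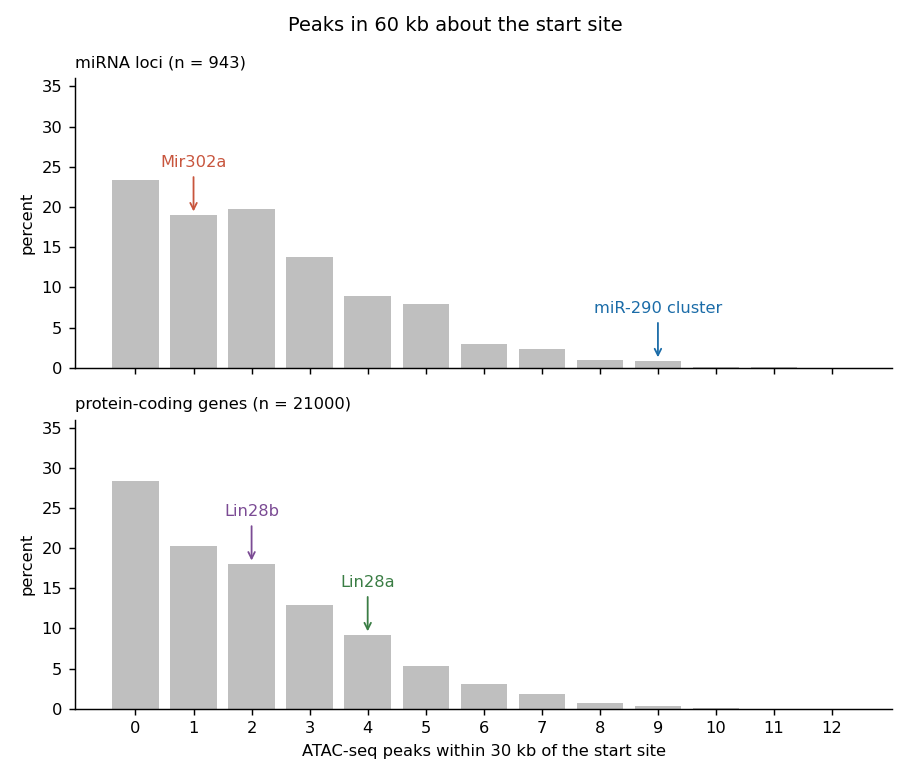
Share of loci (y axis, percent) by the number of peaks within 30 kb of the start site (x axis) for 943 miRNA loci and 21000 protein-coding genes. The miR-290 cluster stands at 9 in the right tail, and Mir302a (1), Lin28b (2) and Lin28a (4) stand in the body of the distributions.

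The other genes of the pathway were read by peaks within 1 kb of their RefSeq start, from lists compiled with earlier results of these data known. For miRNA genes that start is the hairpin, so the promoters of their primary transcripts were not measured. In the miR-290 cluster 2 of 9 precursors (Mir290a and Mir290b) had a promoter peak, which was the same peak. Among 13 genes of other clusters with a related seed 2 did, Mir17 (score 798, at 971 bp) and Mcm7, a replication helicase gene that hosts miR-106b, miR-93 and miR-25 (score 654). Mir17hg, the host gene of Mir17, did not, and its nearest peak lay 1690 bp from its start. Of the 12 let-7 genes 1 did, Mirlet7g, with a score of 547. None of the 4 genes for let-7 turnover and its regulation had one (Tut4, Tut7, Dis3l2 and Trim71). Neither the miR-302 cluster (0 of 5) nor 13 miRNAs restricted to other tissues, such as the neuronal Mir124a-1 and the muscle Mir206, had any. Beside the 11.2% of all miRNA genes, the let-7 share was 8.33% (interval 1.49% to 35.4%) and that of the miR-290 cluster 22.2% (6.32% to 54.7%), and the intervals of all 4 lists that hold miRNA genes alone include 11.2%. Precursors of 1 cluster can share a peak, as Mir290a and Mir290b did. Such precursors are not independent, so these intervals understate the uncertainty.

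Of 10 genes that make or load miRNAs, 2 had a promoter peak, Drosha, the nuclease that cuts the hairpin from the primary transcript (score 918), and Xpo5, its exporter (score 820). Dgcr8, Dicer1, Tarbp2, Prkra and the 4 Argonaute genes had none. Of 6 let-7 targets, Igf2bp2 (score 666) and Igf2bp3 (score 827), which encode RNA-binding proteins, had one and Hmga2, Igf2bp1, Arid3a and Hmga1 had none. Of 5 cell cycle targets of the AAGUGC seed, Rbl2, a pocket protein gene, had one (score 584) and Cdkn1a, Lats2, Tgfbr2 and Rhoc had none. With so few genes the Wilson intervals were wide, and that of every protein-coding list included 28.5%.

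**Figure D4:**
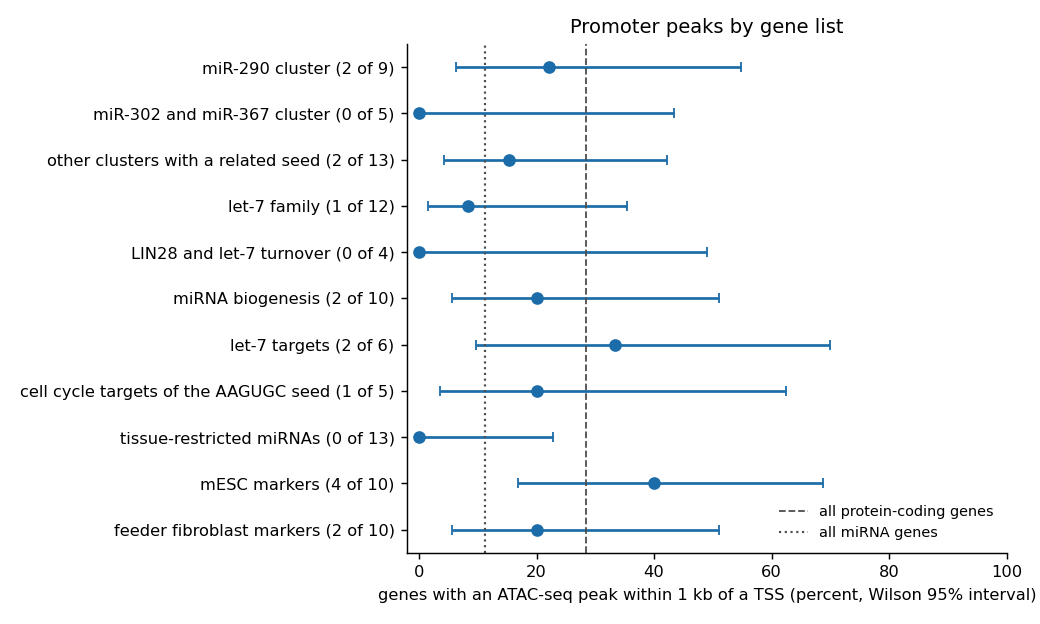
Percent of genes with a peak within 1 kb of a TSS (x axis) for each list (y axis), with Wilson 95% intervals, and the share of all protein-coding genes (28.5%, dashed) and all miRNA genes (11.2%, dotted). The mESC markers have the highest share at 40.0%, and 3 lists stand at 0. For miRNA genes the TSS is the first base of the hairpin.

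The cell type was checked against markers. Of 10 mESC markers, Pou5f1 (best score 861), Nanog (805), Zfp42 (892) and Dppa5a (771) had a promoter peak, and the 60 kb about the 10 starts held 45 peaks, with 1 gene (Klf4) at 0. Of 10 markers of fibroblasts, the feeder cells, Thy1 (829) and Pdgfrb (602) had one, and the 60 kb windows held 10 peaks, with 7 of 10 genes at 0, among them Col1a2, Col3a1 and Dcn. Of all protein-coding genes 28.3% had 0 peaks in that window, and the median was 2. The Wilson 95% intervals of the promoter shares, 16.8% to 68.7% for the 4 of 10 mESC markers and 5.67% to 51.0% for the 2 of 10 fibroblast markers, both include the 28.5% of all protein-coding genes. Thy1 is not exclusive to fibroblasts. The part of feeder cells in the peaks of the 4 loci was not tested.

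The study sorted chromatin loops from Hi-C into 500 ZBTB21-responsive and 500 less-responsive ones, all longer than 500 kb, where the first contain ZBTB21 peaks and cohesin peaks that fell on ZBTB21 loss. The Hi-C was made in ZBTB21-degron mESCs, untreated or after 6 h of IAA, whereas the peaks are those of the untreated libraries labelled V6.5. Of the 4 windows 1 lay under a loop, that of Mir302a, under a responsive loop (chr3:127475001-129575000). Windows under a responsive loop made up 18.0% of all protein-coding and miRNA windows, and those under a less-responsive loop 6.87%. The loop spans 2.1 Mb, and 14 of the 500 responsive loops were at least that long, against a median of 0.8 Mb. It held 23 peaks, and 254 of the 500 responsive loops held more. Per Mb it held 11.0 peaks, where the median responsive loop had 30.4 per Mb. The start of Mir302a lay 45.5 kb from the first anchor, inside the loop. From the miR-290 cluster the nearest responsive anchor was 0.204 Mb away, from Lin28a 0.503 Mb and from Lin28b 12.0 Mb. The loops were ranked by ZBTB21 and cohesin signal at ATAC-seq peaks, so their classes are not independent of the list.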

How the data were processed

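ATAC-seq of untreated V6.5 mESCs (2 replicates) was used as 1 pooled list of peaks. The authors deposited for each peak its coordinates and a score. The submitters' processing notes name cutadapt 2.6, Bowtie2 2.3.5.1, MACS2 2.1.1 and the builds mm10 and hg19, with no role given. How ATAC-seq peaks were called, and whether Tn5 cut sites were shifted, is not given in the sources used here. For ChIP-seq the study used an IDR threshold of 0.05, of which 540, the lowest score here, is the scaled score, and the column was read as such from its values only. Depth per sample was not known, so the precision of a single peak cannot be given.

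From the list, peaks that overlap by at least 1 bp a region within 1 kb of a curated RefSeq TSS (GRCm38.p6), or a gene span plus 30 kb, were counted. Motifs were searched in 300 bp about each midpoint. Loops came from the supplement of the study, with anchors of 25 kb. Shares have Wilson 95% intervals. No test was made. The named genes were the 5 members and the lists of related miRNAs, pathway genes and markers. Members and lists were chosen with earlier results of these data known. Counting was tested on simulated data (2050 counts, of which 0 differed, and 200 planted motifs, of which 0 were missed). Alternatives were the TSS distance, the flank, a score above the median, the midpoint rule, merging within 500 bp, predicted transcripts and the part of the loop. Python 3.11.15, numpy 2.4.6, scipy 1.17.1 and pyfaidx 0.9.0.4 were used.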

Additional observations from a re-analysis of the deposited data

How the results depend on the processing

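No paired analysis was possible because the 2 replicates were deposited as 1 list and no result comes from a test. Of 38 alternatives, 23 left the count within 1.5 times its value and 15 moved it. With a TSS distance of 500 bp, 0 promoter peaks were left at the 5 genes, and with 2.5 kb there were 2, while miRNA genes with a promoter peak rose from 137 to 243. With a flank of 10 kb the windows held 4 (miR-290 cluster), 0 (Mir302a) and 2 (Lin28a) peaks, and with 100 kb 16, 7 and 15, with 6 at Lin28b. With scores above the list median, Mir302a had 0 and Lin28a 3 peaks, and 3918 protein-coding and 79 miRNA genes kept a promoter peak. With loop anchors only, 0 windows were under a loop. The 4 counts in 30 kb on each side of the start site were added after seeing the data. The list gives no depth and no values per replicate, so accessible sites below its threshold cannot be told from closed ones.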

Other observations

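Among other miRNA clusters of the lists, the 60 kb about the start held 5 peaks for Mir106b, 4 for Mir17, 3 for Mir106a and between 0 and 6 for the let-7 genes, of which 4 of 12 had 0. The promoter peak of Mcm7 was 1719 bp wide and that of Igf2bp2 1578 bp, both wider than any of the 17 peaks at the ES cell loci. Of the miRNAs restricted to other tissues, Mir9-2 had 6 peaks and Mir9-1 5, and 3 of 13 had 0.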
